A study of Mus musculus with 6 samples.

Results

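The Slc25 family of mitochondrial solute carriers was described in gastrocnemius, the large calf muscle, of Ogg1Tg and Control mice. Its members were taken as every entry of the 6 expression tables whose symbol is Slc25a followed by a number. There were 47 such genes among 35491 named entries. Each matched a single gene of the mouse annotation. RNA had been sequenced from 3 Ogg1Tg and 3 Control males aged 20 weeks, fed chow and given no treatment, both groups on a C57BL/6J background. Ogg1Tg mice carry human OGG1-1a, a DNA glycosylase that removes oxidised guanine, fused to a mitochondrial import signal and driven by a CMV/AG promoter. Control mice are described only as controls of the same background. The comparison asks what a mitochondrially directed repair enzyme does to the muscle transcriptome.

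Carriers of the SLC25 family sit in the inner mitochondrial membrane and exchange metabolites between the cytosol and the matrix. Their substrates include ADP and ATP, phosphate, carboxylates, amino acids, nucleotides, vitamins and cofactors. In skeletal muscle the exchange of ADP for ATP feeds contraction, and the aspartate/glutamate and oxoglutarate/malate carriers move reducing equivalents from glycolysis into the matrix. A few members lie elsewhere, such as Slc25a17 in peroxisomes and Slc25a46 in the outer mitochondrial membrane.

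The depth was 45189860 to 56126407 reads in named genes in the Ogg1Tg libraries and 48393073 to 52070991 in the Control libraries. Mouse Ogg1 measured 176, 201 and 193 scaled reads (the deposited value, a read count scaled by a factor per library and not by length) in Ogg1Tg muscle and 154, 225 and 193 in Control muscle, which does not measure the human transgene. Muscle fibre genes (Acta1, Ckm, Myh4, Myh1, Tnnt3 and Mylpf) were the most abundant of the marker lists in each library. Ogg1Tg replicate 3 stood apart, with a Spearman correlation across genes of 0.946 to 0.953 with the other libraries, which correlated at 0.975 to 0.983 with each other. In Ogg1Tg replicates 1, 2 and 3 the summed signal of 4 B cell markers was 62.2, 62.2 and 5785, against 11.1 to 37.8 in Control libraries. The sum of 6 adipocyte markers was 3436, 3129 and 10933, against 3674 to 4125 in Control. The sum of the 6 muscle fibre genes was 5170400, 6830700 and 3541500, against 5533400 to 7440500 in Control. The sum of 4 T cell markers was 17.8, 14.6 and 1509, against 11.1 to 22.2 in Control, and that of 5 macrophage markers was 1477, 1069 and 3330, against 1560 to 2129 in Control. The part of these markers in the carrier values was not tested. Fold changes printed for a carrier are also given without this library where that moves them by over 1.5 times. In whole muscle, fewer cells of a type and less RNA per cell cannot be told apart.

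Slc25a4, the adenine nucleotide translocator of heart and skeletal muscle, was by far the most abundant carrier transcript. Per kilobase of exon it reached 29976 ± 8594 scaled reads in Ogg1Tg and 37696 ± 2720 in Control muscle (SD, n = 3 each). By the same measure it made up 64.9% ± 3.76 of the summed family in Ogg1Tg and 67.4% ± 1.65 in Control muscle (SD, n = 3 each). The share in single libraries was 66.1%, 67.8% and 60.6% in Ogg1Tg replicates 1, 2 and 3 and 68.9%, 67.8% and 65.7% in Control replicates 1, 2 and 3, so the groups overlapped. Slc25a4 occupies chr8:46206797-46211284 (mm10, minus strand).

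Only another 3 carriers averaged more than 1000 scaled reads per kilobase over the 6 libraries. Slc25a3, which brings phosphate (and copper) into the matrix, reached 4129 ± 864 in Ogg1Tg and 5221 ± 202 in Control muscle. Slc25a11, the oxoglutarate/malate carrier, reached 2336 ± 532 in Ogg1Tg and 2832 ± 154 in Control muscle. Slc25a12, the calcium-regulated aspartate/glutamate carrier of muscle and brain, reached 2105 ± 508 in Ogg1Tg and 2867 ± 162 in Control muscle. Within libraries Slc25a11 lay above Slc25a12 in 3 of 3 Ogg1Tg and in 1 of 3 Control mice. Together with Slc25a4 these carriers made up 83.7% ± 2.88 of the family in Ogg1Tg and 87.02% ± 0.41 in Control muscle.

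**Figure D1:**
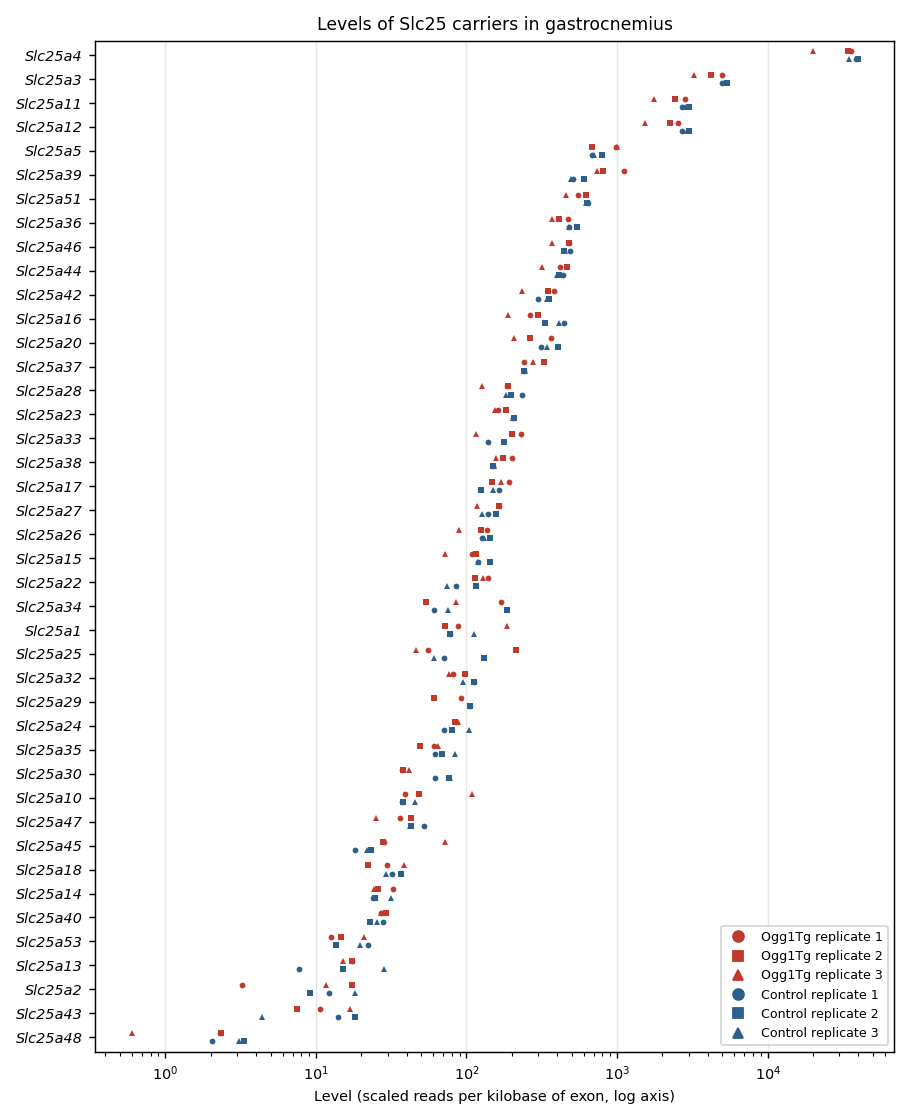
Level of each carrier in scaled reads per kilobase of exon (log axis) in each Ogg1Tg library (red) and Control library (blue), for 42 carriers with reads in all 6 libraries, from the highest mean to the lowest. Slc25a4 stands alone at the top, followed by Slc25a3, Slc25a11 and Slc25a12, and the triangle of Ogg1Tg replicate 3 lies farthest to the left for each of these 4.

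Below these came 22 carriers between 100 and 1000 scaled reads per kilobase. Slc25a5, the translocator of growing and non-muscle cells, reached 888 ± 176 in Ogg1Tg and 727 ± 56.6 in Control muscle. Slc25a39, needed for glutathione import into mitochondria, reached 886 ± 204 in Ogg1Tg and 537 ± 59.7 in Control muscle. Slc25a51, the NAD carrier, reached 545 ± 83.5 in Ogg1Tg and 631 ± 8.36 in Control muscle. Then followed Slc25a36, a pyrimidine nucleotide carrier, at 416 ± 50.4 in Ogg1Tg and 498 ± 37.2 in Control muscle. Slc25a46, an outer membrane protein involved in mitochondrial shape, and Slc25a44, a carrier of branched-chain amino acids, completed the 10 most abundant members. Slc25a46 reached 443 ± 61.9 in Ogg1Tg and 458 ± 21.8 in Control muscle, and Slc25a44 reached 399 ± 75.9 in Ogg1Tg and 415 ± 18.4 in Control muscle. Within libraries Slc25a46 lay above Slc25a44 in 3 of 3 Ogg1Tg and 3 of 3 Control mice, and above Slc25a36 in 3 of 3 Ogg1Tg and 1 of 3 Control mice. Slc25a36 lay above Slc25a44 in 2 of 3 Ogg1Tg and 3 of 3 Control mice. The same 10 genes were the most abundant in each group taken alone.

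A further 16 carriers lay between 10 and 100 scaled reads per kilobase and 5 lay below. Among the low ones were Slc25a13, the aspartate/glutamate carrier of liver, Slc25a18, a glutamate carrier, and Slc25a10, the dicarboxylate carrier of liver and fat. Slc25a31, the translocator of testis, had 6, 0 and 0 reads in Ogg1Tg replicates 1, 2 and 3 and 1, 0 and 0 in Control replicates 1, 2 and 3. Slc25a54 had at most 2 reads in any library, and Slc25a41, an ATP-Mg/phosphate carrier, at most 1. Slc25a41 was the only member below the mean of 1 required for testing. Slc25a21, the oxoadipate carrier, had 0, 6 and 0 reads in Ogg1Tg and 2, 8 and 3 reads in Control muscle. At these counts a difference between the groups was not detectable.

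Paralogues that share a substrate were set against each other within each library, where scaling between libraries cancels. Slc25a4 exceeded Slc25a5 per kilobase by 36.3, 49.9 and 20.1 times in Ogg1Tg and by 56.5, 50.4 and 48.98 times in Control muscle. The groups overlapped narrowly, and the ratio was lowest in Ogg1Tg replicate 3 (exact permutation test, two-sided, p = 0.2; the smallest p for 3 mice per group is 0.1). Slc25a39 exceeded its paralogue Slc25a40 by 41.2, 27.8 and 27.05 times in Ogg1Tg and by 18.3, 26.5 and 19.5 times in Control muscle. Here every Ogg1Tg mouse lay above every Control mouse (exact permutation test, two-sided, p = 0.1). Of the iron carriers, Slc25a37 exceeded Slc25a28 by 1.30, 1.72 and 2.18 times in Ogg1Tg and by 1.02, 1.23 and 1.33 times in Control. These ratios overlapped between the groups. Slc25a12 exceeded Slc25a13 by 102 to 147 times in Ogg1Tg and by 104 to 350 times in Control muscle. Slc25a23 exceeded Slc25a24, both calcium-regulated ATP-Mg/phosphate carriers, by 1.76 to 2.17 times in Ogg1Tg and by 1.95 to 2.88 times in Control muscle. Slc25a36 exceeded Slc25a33, both pyrimidine nucleotide carriers, by 2.03 to 3.18 times in Ogg1Tg and by 2.67 to 3.41 times in Control muscle. The adjusted p was 0.3 for each of the 6 pairs in the same exact permutation test.

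No carrier passed the test between genotypes. Of 46 members tested with limma on log2(value + 1), 0 were called higher and 0 lower at a Benjamini-Hochberg adjusted p under 0.05 over all genes, against 0.395% and 0.15% of the 23312 genes tested. At an unadjusted p under 0.05 there were 2 higher members (background 4.24%) and 5 lower ones (background 6.78%). edgeR on the recovered reads also called 0 of 42 members in either direction, with a background of 0.651% higher and 0.194% lower. DESeq2 on the same reads called Slc25a39 higher and Slc25a30 lower, 1 of 42 each, with a background of 1.94% higher and 1.47% lower. The same carriers were the 1 higher and 1 lower call without Ogg1Tg replicate 3. Their background was then 0.986% higher and 0.877% lower with limma, 1.38% and 0.652% with edgeR, and 3.2% and 2.23% with DESeq2. The median log2 fold change of the 46 carriers was -0.11 (all genes tested, -0.02), with 18 above 0 and 28 below (47.2% above and 52.8% below over all genes). Every Ogg1Tg library lay above every Control library for 3 carriers (6.52% of the 46, background 7.03%) and below for 8 (17.4%, background 11.3%).

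**Figure D2:**
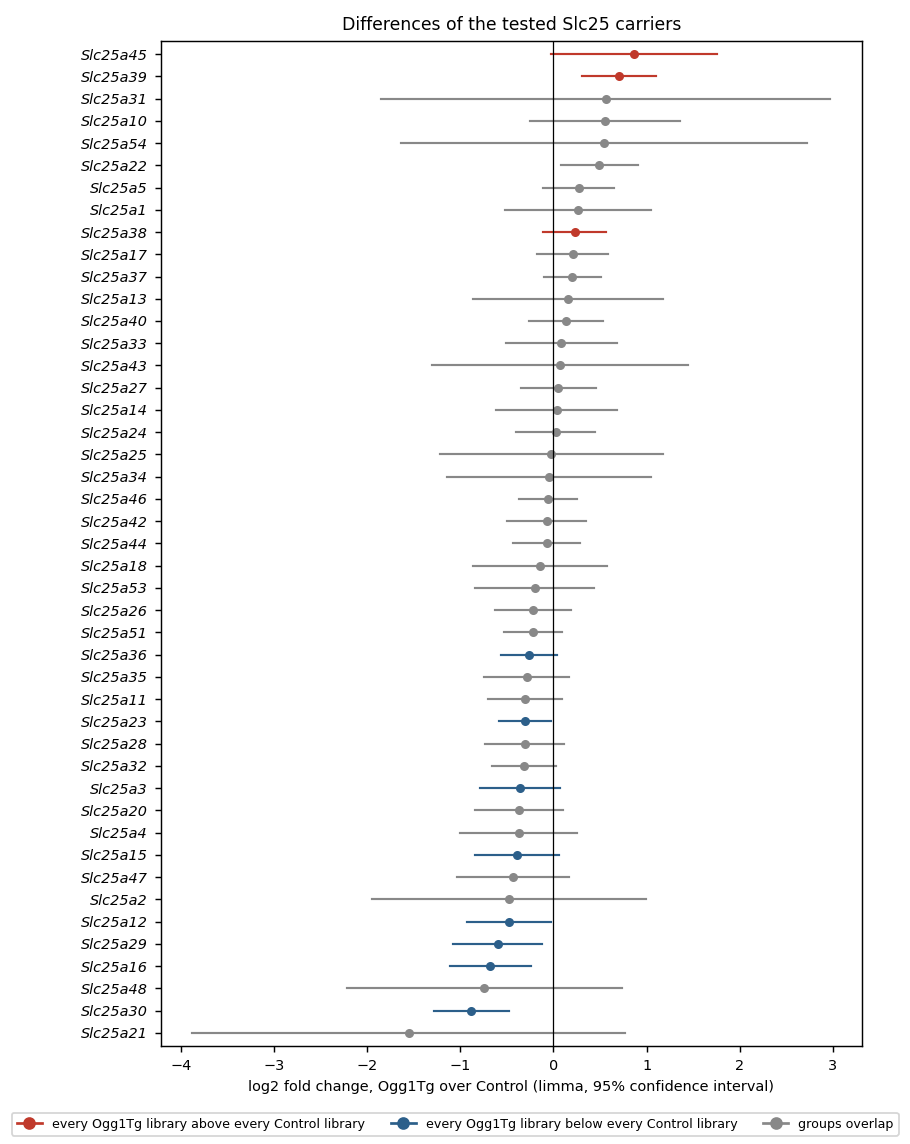
Log2 fold change of 45 tested carriers, Ogg1Tg over Control, with its confidence interval from limma. Red marks the 3 carriers with every Ogg1Tg library above every Control library, blue the 8 with every Ogg1Tg library below, and the intervals of Slc25a39 and Slc25a30 lie farthest from 0 relative to their width.

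Slc25a39 had the lowest p of the carriers that were higher in Ogg1Tg muscle. It measured 3081, 2221 and 2021 scaled reads in Ogg1Tg replicates 1, 2 and 3, against 1402, 1670 and 1371 in Control replicates 1, 2 and 3. All Ogg1Tg values lay above all Control values, with Ogg1Tg replicate 1 highest. The log2 fold change was 0.70 ± 0.17 (SE), a fold of 1.63, and did not pass limma (adjusted p = 0.177). Without Ogg1Tg replicate 3 it was 0.83 ± 0.15 and passed limma (adjusted p = 0.0223). On recovered reads the adjusted p was 0.0935 with edgeR and 0.00543 with DESeq2. Over all alternatives the adjusted p of Slc25a39 ran from 4.54e-05 to 0.597, and its log2 fold change from 0.52 to 0.88. Slc25a39 occupies chr11:102402985-102407946 (mm10, minus strand).

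Slc25a30, a kidney-enriched carrier related to the uncoupling proteins, had the lowest p of the family. It measured 170, 172 and 191 scaled reads in Ogg1Tg replicates 1, 2 and 3, against 283, 350 and 356 in Control replicates 1, 2 and 3. The Ogg1Tg values lay close together and all below the Control values, and Ogg1Tg replicate 3 did not stand apart. The log2 fold change was -0.88 ± 0.18 (SE), a fold of 0.54, and did not pass limma (adjusted p = 0.0962). Without Ogg1Tg replicate 3 it was -0.94 ± 0.18 and passed limma (adjusted p = 0.0283). On recovered reads the adjusted p was 0.136 with edgeR and 0.0116 with DESeq2. Over all alternatives the adjusted p of Slc25a30 ran from 0.00178 to 0.49, and its log2 fold change from -0.99 to -0.80. Slc25a30 occupies chr14:75760117-75787037 (mm10, minus strand). The other uncoupling protein-like carriers, Slc25a27 and Slc25a14, overlapped between the groups.

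The 250 bases before the RefSeq start of Slc25a39 and of Slc25a30 are shown because these carriers had the lowest p in each direction. They are RefSeq sequences of GRCm38.p6, the assembly of mm10, on the minus strand at chr11:102407518-102407767 for Slc25a39 and chr14:75787038-75787287 for Slc25a30. The RefSeq start of Slc25a39 lies 429 bases inside the outermost start in GENCODE, so its window lies within the gene span given above, with 27 of its bases in exons of other GENCODE transcripts. The RefSeq and outermost GENCODE starts of Slc25a30 are the same base. Capitals mark a GC box, spelled GGGCGG, on either strand. They also mark a CCAAT box, spelled as its name, on either strand.
Slc25a39: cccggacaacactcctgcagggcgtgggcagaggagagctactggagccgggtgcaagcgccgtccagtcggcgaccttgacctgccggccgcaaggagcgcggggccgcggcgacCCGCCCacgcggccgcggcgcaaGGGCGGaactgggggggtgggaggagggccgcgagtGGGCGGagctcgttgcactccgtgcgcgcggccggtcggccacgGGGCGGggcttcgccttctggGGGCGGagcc
Slc25a30: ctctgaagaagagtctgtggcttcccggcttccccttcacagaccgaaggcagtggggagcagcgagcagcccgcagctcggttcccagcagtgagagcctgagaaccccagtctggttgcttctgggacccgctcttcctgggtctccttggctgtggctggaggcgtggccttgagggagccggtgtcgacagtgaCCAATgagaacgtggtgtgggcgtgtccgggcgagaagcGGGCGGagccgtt
The Slc25a39 window held 5 GC boxes and 0 CCAAT boxes, and the Slc25a30 window held 1 of each. GC letters made up 77.2% of the Slc25a39 window and 64.4% of the Slc25a30 window. A GC box was present for 25 of the 36 carriers in the promoter table and in 32.7% of its 32851 windows, and a CCAAT box for 18 of 36 and in 33.9% of windows. For carriers with several starts in the table, a match in any window counted once, whereas the share of windows counts each window. The composite ATF4 and C/EBP letters TGATGCAA, searched on both strands, occurred in 0 of the 36 and in 0.79% of windows. The ERR letters AAGGTCA occurred in 1 of the 36, Slc25a34, and in 4.08% of windows. None of these motifs contains another, and a match or its absence describes these letters alone.

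Carriers of amino acids gave values on both sides. Slc25a29, a carrier of basic amino acids, measured 240, 157 and 159 scaled reads in Ogg1Tg replicates 1, 2 and 3, against 275, 277 and 277 in Control replicates 1, 2 and 3. Every Ogg1Tg value lay below the narrow Control range, with a log2 fold change of -0.60 ± 0.21 (SE) that did not pass limma (adjusted p = 0.34). Slc25a15, the ornithine carrier of the urea cycle, measured 611, 650 and 406 in Ogg1Tg, against 670, 810 and 672 in Control muscle. Its groups did not overlap, but replicates 1 and 2 of Ogg1Tg lay just below the Control values (log2 fold change -0.39 ± 0.20, limma adjusted p = 0.51). Without Ogg1Tg replicate 3 the Slc25a15 value was -0.18 ± 0.13 (limma adjusted p = 0.61). Slc25a22, a glutamate carrier, measured 833, 684 and 777 in Ogg1Tg, against 509, 695 and 448 in Control muscle, and overlapped through Control replicate 2 (log2 fold change 0.49 ± 0.18, limma adjusted p = 0.37). Slc25a38, the glycine carrier needed for haem synthesis, measured 551, 479 and 430 in Ogg1Tg, against 410, 410 and 420 in Control muscle. All its Ogg1Tg values lay above the Control values, replicate 3 by little (log2 fold change 0.23 ± 0.15, limma adjusted p = 0.62). Slc25a45, a less characterised member not grouped here with the amino acid carriers, measured 77.8, 76.7 and 198 in Ogg1Tg, against 49.9, 64.3 and 60.04 in Control. Its groups did not overlap, and Ogg1Tg replicate 3 set most of the log2 fold change of 0.86 ± 0.39 (limma adjusted p = 0.47). Without that library it was 0.41 ± 0.29 (limma adjusted p = 0.61).

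**Figure D3:**
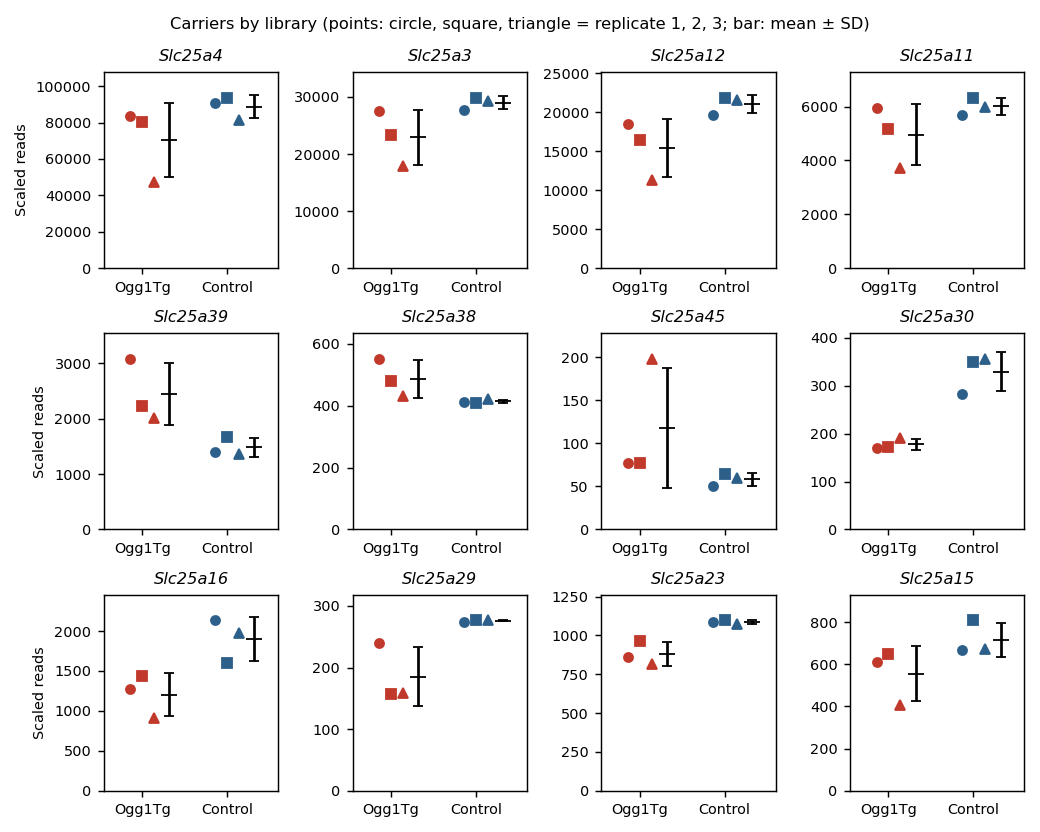
Scaled reads of 12 carriers in each library, Ogg1Tg left of Control, with the mean ± SD of 3 mice beside the points. Ogg1Tg replicate 3 (triangle) is lowest for the 4 abundant carriers in the top row, whereas the 3 Ogg1Tg values of Slc25a30 lie between 170 and 191 and below all Control values.

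Of the carriers of energy metabolism, several of the most abundant lay lower in Ogg1Tg muscle, Ogg1Tg replicate 3 lowest. Slc25a12 measured 18565, 16487 and 11316 scaled reads in Ogg1Tg replicates 1, 2 and 3, against 19695, 21908 and 21544 in Control replicates 1, 2 and 3. The groups did not overlap, and the log2 fold change of -0.47 ± 0.20 (SE) did not pass limma (adjusted p = 0.42). Slc25a3 measured 27493, 23323 and 17928 in Ogg1Tg, against 27731, 29898 and 29306 in Control muscle. Its highest Ogg1Tg value lay just below the lowest Control value (log2 fold change -0.36 ± 0.19, limma adjusted p = 0.53). Slc25a4 measured 83850, 80488 and 47264 in Ogg1Tg, against 90811, 93776 and 81511 in Control muscle. The groups overlapped, and Ogg1Tg replicate 3 lay far below the other 5 (log2 fold change -0.37 ± 0.28, limma adjusted p = 0.66). Without that library the log2 fold change was -0.11 ± 0.12 (limma adjusted p = 0.77) for Slc25a4, -0.19 ± 0.11 (limma adjusted p = 0.48) for Slc25a3 and -0.27 ± 0.10 (limma adjusted p = 0.27) for Slc25a12. With all 6 libraries and quantile normalization it was -0.09 ± 0.11 for Slc25a4, -0.06 ± 0.11 for Slc25a3 and -0.23 ± 0.1 for Slc25a12. Slc25a11 measured 5954, 5171 and 3732 in Ogg1Tg, against 5680, 6335 and 5999 in Control muscle, and overlapped. Slc25a20, which exchanges acylcarnitine for carnitine during fatty acid import, measured 1775, 1274 and 996 in Ogg1Tg, against 1509, 1954 and 1651 in Control muscle, and overlapped as well.

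Nucleotide and coenzyme carriers held a further member without overlap of the groups besides Slc25a36. Slc25a16, which is thought to carry coenzyme A, measured 1273, 1431 and 906 scaled reads in Ogg1Tg replicates 1, 2 and 3, against 2137, 1596 and 1979 in Control replicates 1, 2 and 3. All Ogg1Tg values were below the Control values, with a log2 fold change of -0.68 ± 0.19 (SE) that did not pass limma (adjusted p = 0.23). Slc25a36 measured 4497, 3930 and 3534 in Ogg1Tg, against 4565, 5185 and 4570 in Control muscle. Its groups were separated by less than the spread within either (log2 fold change -0.26 ± 0.13, limma adjusted p = 0.51). Slc25a51 measured 3032, 3446 and 2528 in Ogg1Tg, against 3528, 3462 and 3439 in Control muscle, and Ogg1Tg replicate 2 lay inside the narrow Control range (log2 fold change -0.22 ± 0.14, limma adjusted p = 0.60). Without Ogg1Tg replicate 3 the Slc25a51 value was -0.10 ± 0.09 (limma adjusted p = 0.69). Slc25a23 measured 861, 966 and 813 in Ogg1Tg, against 1084, 1098 and 1076 in Control muscle. It did not overlap, with a log2 fold change of -0.31 ± 0.12 that did not pass limma (adjusted p = 0.40). The abundant carriers Slc25a5, Slc25a46 and Slc25a44 overlapped between the groups. Slc25a5 measured 1614, 1128 and 1645 in Ogg1Tg, against 1125, 1302 and 1164 in Control muscle (log2 fold change 0.27 ± 0.17, limma adjusted p = 0.6). Slc25a46 measured 2595, 2602 and 2017 in Ogg1Tg, against 2622, 2405 and 2433 in Control muscle (log2 fold change -0.06 ± 0.14, limma adjusted p = 0.9). Slc25a44 measured 1491, 1663 and 1131 in Ogg1Tg, against 1556, 1472 and 1427 in Control muscle (log2 fold change -0.07 ± 0.16, limma adjusted p = 0.89). Ogg1Tg replicate 3 was the lowest of the 6 libraries for Slc25a46 and Slc25a44 and the highest for Slc25a5. Without it the log2 fold changes were 0.06 ± 0.09 for Slc25a46, 0.09 ± 0.10 for Slc25a44 and 0.18 ± 0.15 for Slc25a5 (limma adjusted p = 0.82, 0.78 and 0.69). The coenzyme A carrier Slc25a42 overlapped, with a mean of 1929 ± 470 in Ogg1Tg and 1990 ± 178 in Control muscle. The folate carrier Slc25a32 averaged 520 ± 64.8 in Ogg1Tg and 645 ± 61.6 in Control muscle, and the S-adenosylmethionine carrier Slc25a26 averaged 560 ± 119 in Ogg1Tg and 641 ± 44.4 in Control muscle, both with overlap.

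Some carriers varied widely between mice of the same genotype. Slc25a25, a calcium-regulated ATP-Mg/phosphate carrier, measured 437, 1670 and 363 scaled reads in Ogg1Tg replicates 1, 2 and 3, against 562, 1023 and 482 in Control replicates 1, 2 and 3. Slc25a34, whose substrate is little known, measured 450, 144 and 228 in Ogg1Tg, against 164, 494 and 202 in Control muscle. Replicate 2 of both groups was high for Slc25a25, and the groups overlapped widely for both genes. Slc25a10 measured 134, 168 and 373 in Ogg1Tg, against 129, 130 and 158 in Control muscle. The citrate carrier Slc25a1 measured 191, 156 and 403 in Ogg1Tg, against 169, 168 and 244 in Control muscle. Ogg1Tg replicate 3, the library with the high adipocyte and B cell markers, was the highest for these carriers as it was for Slc25a45. The part of the markers in these values was not tested.

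Across the family Ogg1Tg replicate 3 differed from the other Ogg1Tg libraries. The median log2 difference of the 46 carriers from the Control mean was -0.01, -0.10 and -0.42 in Ogg1Tg replicates 1, 2 and 3, against -0.06 to 0.05 in Control libraries. In Ogg1Tg replicate 3, 25 of 46 carriers (54.3%) lay below all Control libraries, against a background of 36.7%, and 10 lay above (background 33.5%). In Ogg1Tg replicates 1 and 2, 17 and 16 carriers lay below all Control libraries (background 30.6% and 28.6%), and 11 and 10 lay above (background 24.8% for each). The median of 25 nuclear-encoded oxidative phosphorylation genes was 0.01, -0.22 and -0.79 in Ogg1Tg replicates 1, 2 and 3, and that of the muscle fibre genes was -0.07, 0.11 and -0.78. In replicate 3 the low carrier values stood beside low values of both lists, and whether the lists bear on the carriers was not tested. As a share of all reads in named genes, the family took 0.27%, 0.23% and 0.24% in Ogg1Tg replicates 1, 2 and 3 and 0.24%, 0.27% and 0.26% in Control replicates 1, 2 and 3. On this scale, which is relative to the rest of each library, the family in Ogg1Tg replicate 3 lay within the range of the others. Slc25a4 alone was lowest in Ogg1Tg replicate 3 on this scale, at 0.104%, against 0.118% to 0.139% in the other libraries.

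**Figure D4:**
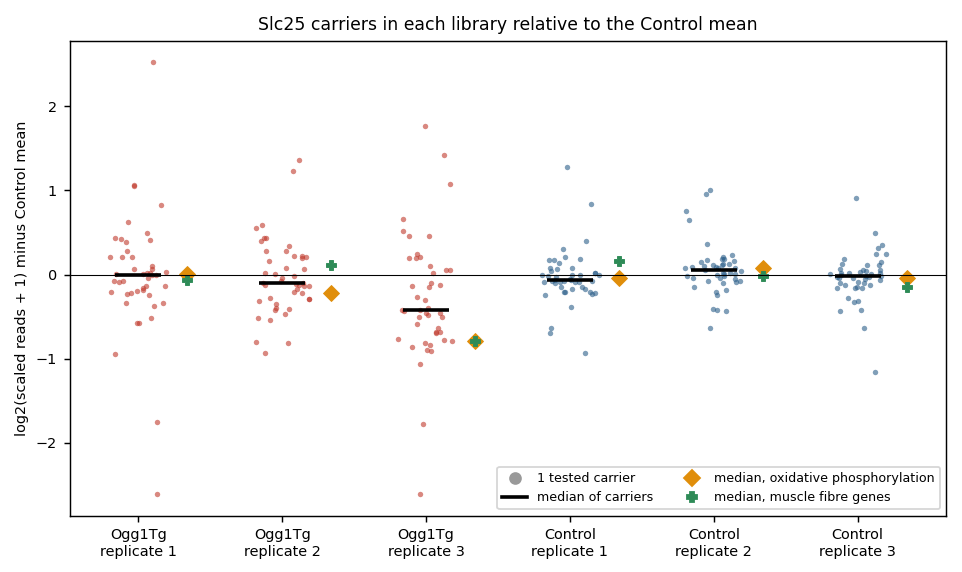
Difference of each tested carrier from its Control mean, on the log2(scaled reads + 1) scale, in each library, with the median of the carriers as a black bar. The median lies at -0.42 in Ogg1Tg replicate 3, where the medians of oxidative phosphorylation genes (diamond) and muscle fibre genes (cross) lie at -0.79 and -0.78.

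Mitochondrial transporters with other symbols and the enzymes that work with the carriers gave no call in limma either. Over all genes limma called 0.395% higher and 0.15% lower, so 0 calls in such short lists do not set them apart. Of 25 tested channels and carriers with other names, 0 passed in either direction, with a median log2 fold change of -0.02 and 3 at an unadjusted p under 0.05 in either direction (over all genes, 4.24% higher and 6.78% lower). Vdac1, the main pore of the outer membrane, averaged 27329 ± 7438 scaled reads in Ogg1Tg and 36121 ± 1288 in Control muscle. Vdac3, a related pore, averaged 16562 ± 3277 in Ogg1Tg and 15616 ± 963 in Control muscle. Ucp3 and Ucp2, uncoupling proteins that belong to the SLC25 family by sequence but not by symbol, were named here after their values were seen. Ucp3 measured 1848, 2686 and 1395 in Ogg1Tg, against 3111, 2866 and 1231 in Control muscle, with wide overlap. Ucp2, which is abundant in immune cells, measured 481, 397 and 2870 in Ogg1Tg, against 509, 519 and 586 in Control muscle. Ucp2 was high in Ogg1Tg replicate 3 and in no other library. That library also had the high B cell, T cell, macrophage and adipocyte markers. The part of these markers in the Ucp2 value was not tested.

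For the lists that follow, limma called 0.395% of all genes higher and 0.15% lower, and the median log2 fold change of all genes was -0.02. Of the carnitine shuttle partners 0 of 6 passed limma, with a median log2 fold change of -0.21. Crat, carnitine acetyltransferase, averaged 12829 ± 3683 scaled reads in Ogg1Tg and 18417 ± 937 in Control muscle, and Cpt2, the inner membrane palmitoyltransferase, averaged 2152 ± 625 in Ogg1Tg and 2556 ± 348 in Control muscle. Of the enzymes of the malate-aspartate and glycerol phosphate shuttles 0 of 7 passed, with a median of -0.28. Got2, the mitochondrial aspartate aminotransferase, averaged 16304 ± 5038 in Ogg1Tg and 19258 ± 1430 in Control muscle, and Mdh2, the mitochondrial malate dehydrogenase, averaged 11741 ± 3133 in Ogg1Tg and 16664 ± 611 in Control muscle. Of the 25 oxidative phosphorylation genes 0 passed, with a median of -0.33 and 24 below 0 (52.8% below over all genes). At an unadjusted limma p under 0.05 there were 7 in either direction (over all genes, 4.24% higher and 6.78% lower). The 7 included the 1 gene of the list above 0. Atp5b and Atp5a1, the beta and alpha subunits of ATP synthase, were the most abundant of the 25. Atp5b averaged 70951 ± 18264 in Ogg1Tg and 78453 ± 3611 in Control muscle, and Atp5a1 averaged 48062 ± 13073 in Ogg1Tg and 62138 ± 2935 in Control muscle. Of the 9 haem synthesis enzymes 0 passed, with a median of -0.19. Alas1, which makes the first haem intermediate from the glycine that Slc25a38 carries, measured 3236, 2828 and 2003 in Ogg1Tg, against 4137, 4118 and 4089 in Control muscle. The groups did not overlap, nor did those of Vdac1, Crat, Mdh2, Atp5a1 and Fech. Over all genes 11.3% had every Ogg1Tg library below every Control library. Alas1 did not pass limma (log2 fold change -0.64 ± 0.17, adjusted p = 0.21), whereas without Ogg1Tg replicate 3 it passed at -0.44 ± 0.09 (limma adjusted p = 0.045). Without that library limma called 0.986% of all genes higher and 0.877% lower. Ferrochelatase (Fech) averaged 5687 ± 1472 in Ogg1Tg and 7032 ± 289 in Control muscle. Red cell markers summed to 537 to 655 in Ogg1Tg and 671 to 871 in Control muscle, with 0 of 5 tested members called.

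The other carriers described here overlapped between the groups. Slc25a17, which carries nucleotides and coenzymes across the peroxisomal membrane, averaged 482 ± 61.2 scaled reads in Ogg1Tg and 417 ± 54.6 in Control muscle. Slc25a37, mitoferrin 1, averaged 1689 ± 258 in Ogg1Tg and 1455 ± 12.6 in Control muscle, and Slc25a28, mitoferrin 2, averaged 626 ± 130.3 in Ogg1Tg and 769 ± 101 in Control muscle. The iron carriers had fold changes of opposite sign, at 0.20 ± 0.14 for Slc25a37 and -0.31 ± 0.19 for Slc25a28 on the log2 scale (SE; limma adjusted p = 0.62 and 0.59). Without Ogg1Tg replicate 3 the Slc25a28 value was -0.12 ± 0.13 (limma adjusted p = 0.76). Slc25a24 averaged 293 ± 5.95 in Ogg1Tg and 292 ± 58.8 in Control muscle, Slc25a40 averaged 233 ± 9.18 in Ogg1Tg and 213 ± 20.7 in Control muscle, and Slc25a33 averaged 344 ± 113 in Ogg1Tg and 312 ± 42.4 in Control muscle. Of the uncoupling protein-like carriers, Slc25a27 averaged 582 ± 105 in Ogg1Tg and 556 ± 62.1 in Control muscle, and Slc25a14 averaged 64.9 ± 10.3 in Ogg1Tg and 63.3 ± 9.63 in Control muscle. Among less characterised members, Slc25a35 averaged 215 ± 30.03 in Ogg1Tg and 263 ± 42.5 in Control muscle, and Slc25a53 averaged 128 ± 33.6 in Ogg1Tg and 147 ± 35.7 in Control muscle. Slc25a43 averaged 20.8 ± 8.63 in Ogg1Tg and 21.7 ± 12.5 in Control muscle, and Slc25a48 averaged 5.91 ± 3.38 in Ogg1Tg and 9.52 ± 2.27 in Control muscle. Slc25a2, a paralogue of the ornithine carrier, averaged 14.8 ± 9.75 in Ogg1Tg and 18.01 ± 6.22 in Control muscle, and Slc25a18 averaged 57.5 ± 15.6 in Ogg1Tg and 62.4 ± 7.005 in Control muscle.

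Some carriers share their place in the genome with another member or gene. Slc25a29 and Slc25a47 lie head to head on chromosome 12, with 162 bases between their outermost GENCODE starts. Their RefSeq starts lie farther apart. The windows before these starts are chr12:108835877-108836126 for Slc25a29 and chr12:108850879-108851128 for Slc25a47. Slc25a47 averaged 103 ± 26.6 scaled reads in Ogg1Tg and 137 ± 16.01 in Control muscle, with overlap. Slc25a41 and Slc25a23 follow each other on the minus strand of chromosome 17, 2056 bases apart, the one with almost no reads and the other among the 20 most abundant carriers. Of the 47 members 17 overlap an annotated gene on the other strand, including Slc25a11 with Rnf167 and Slc25a36 with Gm16185. The strand setting of the counting is unknown, so reads of overlapping genes on opposite strands cannot be told apart. Slc25a5-ps, a processed copy of Slc25a5, had 0, 3.97 and 0 scaled reads in Ogg1Tg and 0 in each Control library.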

How the data were processed

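Libraries were prepared from gastrocnemius total RNA with a NuGen Ovation kit, per the labels' protocols. Trimmomatic, SAMtools, HTSeq and mm10 appear in the submitters' processing notes without versions. The aligner, annotation and strand setting were not stated there. Each deposited file gives a signal per gene. The file names call it FPKM, but the deposited signal is the read count scaled by 1 factor per library: 100% of values in each library came out within 0.01 of a whole read whatever the gene's length. In Ogg1Tg replicate 3 the step is 1.006, so its recovery is less distinctive. These values are called scaled reads.

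Entries without a name (1824, holding 2.38% to 3.54% of reads) were left out. The 23312 genes averaging 1 or more in the 6 libraries were fitted on log2(value + 1), a scale that shrinks the folds of low genes, with limma 3.58.1 in R 4.3.3 (contrast Ogg1Tg minus Control, variance trend, two-sided) and adjusted over all genes. Levels between genes were compared per kilobase of a gene's joined exons (GENCODE M21, GRCm38, which is mm10). edgeR 4.0.16 and DESeq2 1.42.0 ran on recovered reads. The limma and edgeR code was tested on simulated data. Nothing in the labels says that the mice came from separate litters or days, and p-values reflect the spread between these 6 mice.

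The values of 1 carrier are not reported here, although it enters the counts over the family. Members and lists were chosen with earlier results of these data known. Values in every library are given for the 10 most abundant members and for up to 12 tested members whose groups do not overlap; of other lists, called genes or else the 2 most abundant are named. Slc25a22, Slc25a20, Slc25a25, Slc25a34, Slc25a1, Slc25a10, Slc25a21, Slc25a31, Ucp2, Ucp3 and the paralogue ratios were added after values were seen. Each pair of libraries differed by more than sampling noise (smallest chi-square per gene 12.9). None of the marker lists (B cells, T cells, macrophages, neutrophils, red cells, endothelium, adipocytes, brown adipocytes) had a member called by limma. This held also where their sums differed between libraries. Over all genes limma called 0.395% higher and 0.15% lower. Ucp1 was at 0 in 5 libraries, and Ly6g and Elane in all 6. The counts carry counting error besides the spread between mice.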

Additional observations from a re-analysis of the deposited data

How the results depend on the processing

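Across 30 single genes and 18 alternatives, 24 genes kept the sign of their log2 fold change in every fit. The 30 held the 10 most abundant carriers and those with groups that do not overlap or an unadjusted limma p under 0.05. They also held the 2 most abundant genes of each other transport or enzyme list, Ucp2 and Ucp3. Carriers picked by overlap or p tend to keep their sign, so the 24 do not describe the whole family. The number of carriers called was 0 higher and 0 lower with edgeR and in limma fits that used 0.1 as pseudocount, dropped the filter or set it to 5, rescaled by median of ratios or by quantiles, dropped the variance trend or made it robust, or added the replicate block. It was 1 higher and 1 lower (Slc25a39 and Slc25a30) with DESeq2, without Ogg1Tg replicate 3, and with edgeR or DESeq2 without that library, the last 2 chosen after seeing the data; with single libraries left out it ran from 0 to 1 in each direction. The cause was not tested. Over all genes 127 were called; 46 without a variance trend, 573 with DESeq2, 362 with edgeR and 862 with DESeq2 without Ogg1Tg replicate 3, and 35 to 425 with 1 library left out. With the longest transcript as length, Slc25a4 made up 65.5% of the family in Control muscle, and 9 of the 10 most abundant carriers stayed among the top 10 (Slc25a44 did not). The Slc25a4 share ran from 63.4% to 66.98% in Ogg1Tg and from 66.7% to 68.3% in Control with 1 library left out.

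Of these 30 genes, the sign of the log2 fold change turned for 6. Their values as reported were -0.06 for Slc25a46, -0.07 for Slc25a44, 0.07 for Vdac3, -0.18 for Atp5b, 0.61 for Ucp2 and -0.22 for Ucp3. Carriers outside the 30 turned as well, such as Slc25a1 (-0.14 to 0.54), Slc25a42 (-0.21 to 0.18) and Slc25a33 (-0.12 to 0.42) over all fits. Others outside the 30 did not, such as Slc25a20 (-0.59 to -0.12) and Slc25a10 (0.12 to 0.85). Slc25a46 was at 0.05 with quantile normalization, 0.03 with edgeR, 0.00 with DESeq2, 0.06 without Ogg1Tg replicate 3, and 0.11 and 0.10 with edgeR and DESeq2 without that library. Slc25a44 was at 0.02 with edgeR, 0.09 without Ogg1Tg replicate 3, and 0.13 and 0.12 with edgeR and DESeq2 without that library. Vdac3 was at -0.05 without Ogg1Tg replicate 1. Atp5b was at 0.09 with quantile normalization, 0.03 without Ogg1Tg replicate 3, and 0.08 with edgeR or DESeq2 without it. Without Ogg1Tg replicate 3, Ucp2 was at -0.30, with -0.25 and -0.26 in edgeR and DESeq2, and Ucp3 at 0.00; Ucp3 was at 0.02 without Control replicate 1. With the replicate block 102 genes were called in all, and Slc25a39 and Slc25a30 had limma adjusted p = 0.22 and 0.16. Deviations of same-numbered mice correlated at -0.05, -0.01 and 0.03 for numbers 1, 2 and 3. With 1 library left out the log2 fold change ran from -0.12 to 0.06 for Slc25a46, -0.19 to 0.09 for Slc25a44, -0.05 to 0.24 for Vdac3, -0.35 to 0.03 for Atp5b, -0.30 to 1.13 for Ucp2 and -0.65 to 0.02 for Ucp3. Depth limits Slc25a21, Slc25a31, Slc25a41, Slc25a48 and Slc25a54.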
